A study of Mus musculus with 6 samples.

Results

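Axon guidance genes encode the ephrin, semaphorin, Slit and netrin ligands and the Eph, plexin, neuropilin, Robo and Unc5 receptors. They were read from Affymetrix arrays of IMCD cells, mouse inner medullary collecting duct cells, an epithelial model of the kidney collecting duct. Members were taken by gene symbol from probe sets with exactly 1 symbol in the platform annotation, and the probe set with the highest mean stood for a gene. The symbols gave 67 members among 22180 genes: 34 ligands, 32 receptors and the antisense RNA Plxna4os1, which is neither. Ephb2 matched the rule but has no value here.

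A lentivirus had brought GFP and ILK into the cells on 1 bicistronic vector, in the wild-type form for 3 samples and as the missense variant ILK-T173I for 3, and each sample had 1 array. Integrin-linked kinase (ILK) is a scaffold of focal adhesions. All 6 samples grew in medium with serum, were given EGF (15 minutes, 20 ng/ml) and were extracted after 1 hour of incubation, so the groups do not show the effect of EGF or of adding ILK. The labels call the arrays biological replicates of stable lines. The sources used here do not say how many lines stand behind a group, and if each is 1 line, line and variant cannot be told apart. The p-values measure the spread between these arrays.

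Guidance ligands steer growing axons by attraction or repulsion, and the same genes act in epithelia and vessels, where they alter adhesion and the actin cytoskeleton of the cell that carries the receptor. Ephrins are held on the cell surface, by a lipid anchor in the A class and by a membrane span in the B class, and signal through Eph receptor tyrosine kinases on the neighbouring cell. Class 3 semaphorins are secreted and act through neuropilins paired with plexins. In the developing kidney, Slit2 acting through Robo2 limits where the ureteric bud, the precursor of the collecting duct, grows out.

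Neuropilin 1 stood out among the higher members and the ligand and receptor Slit2 and Robo2 among the lower ones. The mean of Nrp1 was 2.81-fold higher in T173I, that of Slit2 2.02-fold lower and that of Robo2 1.36-fold lower, and in each of the 3 genes the groups did not overlap. Robo2 was dim among the tested genes, with a mean signal of 5.79. Robo1, the other tested Slit receptor, had a difference of -0.59 log2 units, and of 0.34 without T173I replicate 1. No member passed the adjusted threshold. The groups did not overlap in 15.2% of all genes tested, and 10.2% had an unadjusted p under 0.05. For 50 of 55 tested members the unadjusted p was 0.05 or more, and in Epha4 the T173I arrays lay on both sides of the wild-type range. In RNA from bulk cultures, less RNA per cell and fewer cells that carry it cannot be told apart.

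The stretches before the start sites of these 3 genes and of Epha2, the Eph receptor with the smallest p, are printed below. Sema5a, Sema7a and Sema3e had a smaller unadjusted p than Epha2, and their stretches are not printed. The printed stretches are the 250 bases before a RefSeq start site (GRCm38.p6), 5′ to 3′ on the gene's strand. The symbol was found in the promoter table for 57 of the 67 members, with 73 entries. Of several starts listed for Robo2 the one farthest upstream is shown. Capitals mark matches, on either strand, to GGGCGG (GC box), TGACTCA (AP-1), TGACGTCA (cyclic AMP response element), GGAATG (TEAD), CACGTG (E-box) or CCGGAAGT (ETS). No marked matches overlap each other. Which start site IMCD cells use was not measured.

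Nrp1, chr8:128358823-128359072, plus strand: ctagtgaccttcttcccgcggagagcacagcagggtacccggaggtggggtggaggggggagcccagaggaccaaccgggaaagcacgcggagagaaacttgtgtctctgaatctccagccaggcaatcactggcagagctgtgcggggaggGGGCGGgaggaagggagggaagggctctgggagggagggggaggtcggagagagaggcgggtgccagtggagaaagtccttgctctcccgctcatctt
Slit2, chr5:47982905-47983154, plus strand: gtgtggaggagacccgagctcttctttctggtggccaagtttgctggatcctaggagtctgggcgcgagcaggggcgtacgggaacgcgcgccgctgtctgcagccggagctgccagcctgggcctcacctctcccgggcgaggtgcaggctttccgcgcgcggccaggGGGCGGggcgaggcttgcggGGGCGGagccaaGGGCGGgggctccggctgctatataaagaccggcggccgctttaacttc
Robo2, chr16:75447294-75447543, minus strand: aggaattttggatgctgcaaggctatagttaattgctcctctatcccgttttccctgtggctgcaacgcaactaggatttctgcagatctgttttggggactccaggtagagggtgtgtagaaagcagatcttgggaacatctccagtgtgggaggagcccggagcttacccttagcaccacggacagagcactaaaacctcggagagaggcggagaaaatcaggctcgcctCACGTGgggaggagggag
Epha2, chr4:141300971-141301220, plus strand: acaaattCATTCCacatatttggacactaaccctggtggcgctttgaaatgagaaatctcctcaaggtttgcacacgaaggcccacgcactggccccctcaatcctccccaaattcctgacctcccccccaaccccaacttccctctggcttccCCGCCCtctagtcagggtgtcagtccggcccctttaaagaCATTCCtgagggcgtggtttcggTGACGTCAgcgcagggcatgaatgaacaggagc

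Nrp1 held 1 GC box, 93 bases before the start site, and Slit2 held 3, at 76, 56 and 44 bases. Robo2 held an E-box 13 bases before the start shown and no GC box. The stretches before the other listed starts of Robo2 held none of the matches. Epha2 held 1 GC box, 1 cyclic AMP response element 26 bases before the start, and 2 TEAD matches. Of the 73 entries of members 72.6% held a GC box, against 42.9% of the 20611 entries of all genes with a probe set of 1 symbol and 32.7% of all 32851 entries. The median GC content was 64.4%, 55.6% and 52.4% in these 3 sets, which thus differ in base composition too. An E-box was found in 5.48% of the members' entries and in 6.02% of all entries. The other shares, members first, were 11.0% and 12.6% for the TEAD match, 2.74% and 4.46% for AP-1, and 1.37% and 1.55% for the cyclic AMP response element. The ETS match was found in 0 entries of members and in 2.88% of all entries. A match describes the letters in this window and not a bound site.

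Levels are log2 RMA signals. The signal of a probe set depends on its probes, so the levels of different genes were not ranked against each other. Dimness was judged by a filter that left out the 40% of genes with the lowest mean (5.37 or less). Of 34 ligands 31 were past the filter (91.2%), and of 32 receptors 24 (75%). All 8 ephrins were past it, with means of 6.07 for Efnb3 to 9.85 for Efna1. Of 20 semaphorins 17 were past it, all 6 of class 4 among them. The 3 Slits and 3 netrins were past it too, Ntn3 only just at 5.37. Among receptors 11 of 13 Eph genes, 7 of 9 plexins, both neuropilins, 2 of 4 Robo genes and 2 of 4 Unc5 genes were past it.

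**Figure D1:**
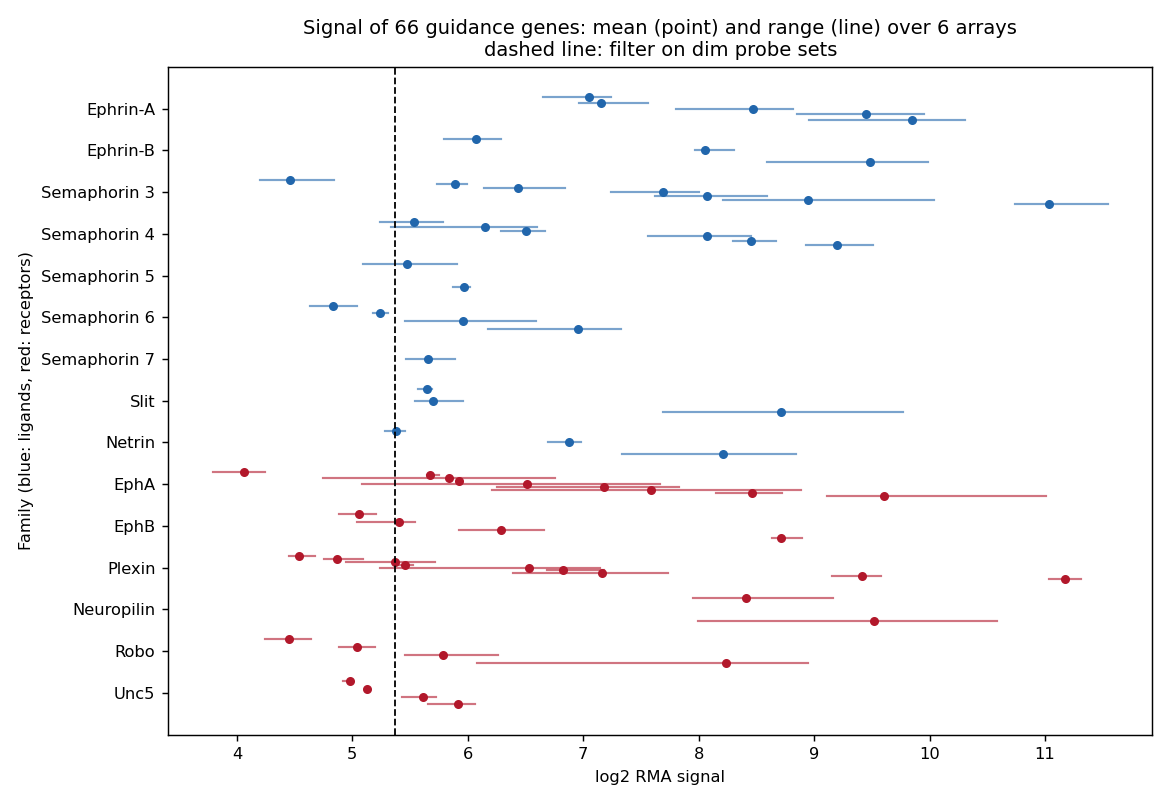
The x axis gives the log2 RMA signal of 66 guidance genes, grouped by family on the y axis, with the mean as a point, the range over 6 arrays as a line, and the filter on dim probe sets as a dashed line. Ligands (blue) lie past the filter in 31 of 34 genes and receptors (red) in 24 of 32; the lines of Robo1, Epha4 and Epha3 are among the longest.

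The members under the filter were Sema3d, Sema6b and Sema6d among ligands and Epha5, Ephb1, Plxnb3, Plxnc1, Robo3, Robo4, Unc5c and Unc5d among receptors. Their mean signals ran from 4.06 (Epha5) to 5.24 (Sema6b), and Plxna4os1 was at 5.14. Plxnc1 is a receptor of Sema7a, and Robo4 is known from endothelium. A dim probe set does not show that a gene is silent.

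Markers were used to check the labelled cell type. Of 16 measured collecting duct markers 11 were past the filter, among them the epithelial genes Cdh1 (11.30), Epcam (10.96) and Krt18 (11.46) and the water channel gene Aqp2 (6.09). Aqp3, Aqp4, Scnn1b, Elf5 and Slc14a2 were under it. Past the filter were also 2 of 9 endothelial markers (Flt1 and Plvap), 4 of 9 fibroblast markers, 4 of 7 neuronal markers and 1 of 5 leukocyte markers (Cd68). Pecam1, Cdh5, Tek, Pdgfra, Dcn and Ptprc were under it. The summed log2 signal of the endothelial list was 45.2 to 45.5 in wild type and 46.1 to 47.1 in T173I. That of the leukocyte list was 25.6 to 26.7 and 26.9 to 27.98, and that of the neuronal list was 35.8 to 37.4 and 37.2 to 39.5. The collecting duct list had 116.8 to 118.6 and 117.6 to 119.8, and the fibroblast list 45.6 to 48.4 and 46.0 to 49.4. The groups did not overlap in the first 2 sums. Without Flt1 the endothelial sum was 39.7 to 39.97 in wild type and 39.8 to 40.4 in T173I, and without Cd68 the leukocyte sum was 18.0 to 18.6 and 18.0 to 18.5, so that each overlapped. The overlapping sum of the collecting duct list hid markers that moved in opposite directions. Krt8, Krt18 and Krt19 were higher on each T173I array than on each wild-type array, and Gata3 was lower. Krt19 was at 8.18 to 8.81 in wild type and 9.43 to 10.63 in T173I, and Gata3 at 6.91 to 7.34 and 6.12 to 6.47. The groups overlapped in the other collecting duct markers past the filter. The part of these markers, Flt1 and Cd68 in the differences below was not tested.

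The T173I arrays differed among themselves. On the first principal component of the tested genes, which held 57.4% of the variance, the wild-type arrays had scores of -18.3 to -11.3. T173I replicate 1 had a score of -11.4, next to them, and replicates 2 and 3 had 38.3 and 15.8. On the second component T173I replicate 1 lay apart from both groups, at -19.4. The wild-type arrays had -0.46 to 15.8 there, and T173I replicates 2 and 3 had 3.97 and -3.07. For Robo1, Epha3, Epha4 and Epha6, in which T173I replicate 1 was below all other arrays, the difference is given without it as well. For Epha2 and Ntn4 it is also given without that array.

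The comparison asks which guidance genes differ between cells with the T173I variant and cells with wild-type ILK. In limma's test over 13308 genes, 0 passed an adjusted p of 0.05, which is 0% of genes, and 1357 (10.2%) had an unadjusted p under 0.05. Of the 55 guidance genes tested, 0 passed, and 28 had a positive difference (50.9%, against 47.4% of all genes). At an unadjusted p under 0.05, 2 members were higher (3.64%, against 4.88% of all genes) and 3 were lower (5.45%, against 5.31%). The share of members was thus near that of all genes. The higher ones were Nrp1 and Sema7a and the lower ones Robo2, Slit2 and Sema5a. Without T173I replicate 1 the counts were 6 and 5, where 9.83% and 12.3% of all genes were called and 156 genes, none of them a member, passed the adjusted threshold. The count of higher members was 5 without wild-type replicate 3, 4 without T173I replicate 2 and 1 without wild-type replicate 1, where 4.08%, 4.13% and 2.49% of all genes were higher.

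In 7 members the groups did not overlap (12.7%, against 15.2% of all genes). Nrp1, Epha2, Sema3b, Sema5b and Sema7a had all T173I arrays above wild type (7.23% of all genes), and Robo2 and Slit2 had all below (7.95%). Differences of at least 1.5-fold were found in 3 members upwards, Nrp1, Epha2 and Sema3e, and in 3 downwards, Slit2, Epha6 and Robo1 (1.88% and 2.16% of all genes). Of these, Epha6 and Robo1 rested on T173I replicate 1: leaving it out gave -0.29 (1.22-fold) for Epha6 and turned the sign of Robo1, to 0.34. Epha2 and Sema3e fell under 1.5-fold without T173I replicate 2, to 0.44 (1.36-fold) and 0.43 (1.35-fold). The median size of a difference was 0.25 log2 units over members and 0.12 over all genes tested. The median SD within wild type was 0.19 over members and 0.098 over all genes, and within T173I it was 0.27 and 0.16. The members thus had both larger differences and a larger spread between arrays.

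**Figure D2:**
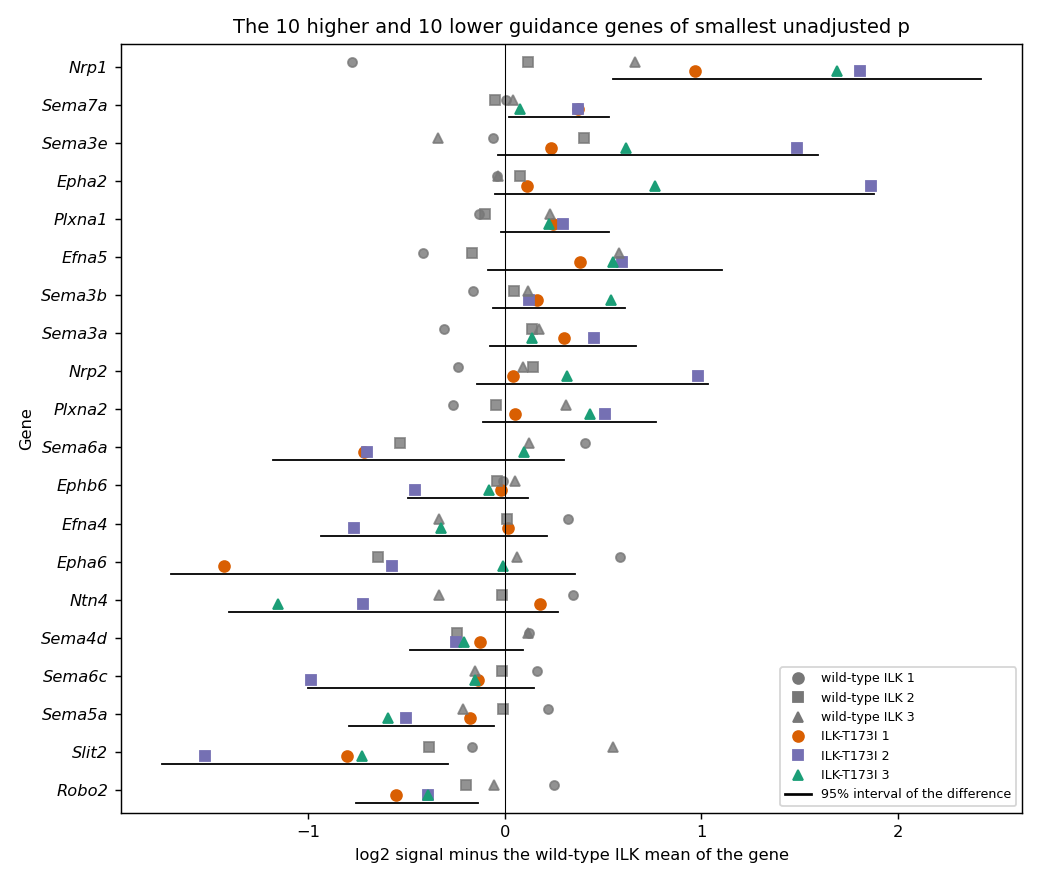
The 20 rows are the 10 higher and 10 lower guidance genes of smallest unadjusted p. The x axis gives each array's log2 signal minus the wild-type mean of that gene, with wild-type arrays in grey, T173I arrays in colour and the limma 95% interval of the difference as a line. The intervals of Nrp1, Sema7a, Sema5a, Slit2 and Robo2 lie on 1 side of 0.

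Among the ephrins, 5 of 8 had a positive difference and 0 had an unadjusted p under 0.05. Efna5, a lipid-anchored ligand of EphA receptors, was at 7.803, 8.05 and 8.802 on the wild-type arrays and 8.599, 8.82 and 8.77 on the T173I arrays. Wild-type replicate 3 lay with the T173I arrays, and the other 2 wild-type arrays lay below them. Its difference was 0.51 (95% interval -0.09 to 1.104, unadjusted p = 0.082), and 0.80 without wild-type replicate 3. Efnb2, a membrane-spanning ligand of EphB4 and other EphB receptors, had a difference of 0.497 (-0.33 to 1.32), with signals of 8.59, 9.29 and 9.82 in wild type and 9.23, 9.99 and 9.98 in T173I. The lowest array was again wild-type replicate 1. Efna4 was at 9.95, 9.64 and 9.29 in wild type and 9.64, 8.86 and 9.303 in T173I, a difference of -0.36. Efna1, a ligand of EphA2, was at 10.31, 9.78 and 9.99 in wild type and 10.08, 8.96 and 9.99 in T173I. T173I replicate 2 alone lay below the wild-type range of Efna1 and of Efna2, and without it the difference of Efna1 went from -0.35 to 0.0045. The remaining ephrins, Efna2, Efna3, Efnb1 and Efnb3, had differences of -0.17 to 0.13.

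The secreted class 3 semaphorins were positive in 5 of 6 tested members. Sema3e, which signals through plexin D1 and can do so without a neuropilin, was at 8.49, 8.96 and 8.21 in wild type and 8.79, 10.04 and 9.17 in T173I. T173I replicates 2 and 3 lay above all wild-type arrays, while replicate 1 lay among them. The difference was 0.78 (1.72-fold, 95% interval -0.03 to 1.59, unadjusted p = 0.057), and 0.43 without T173I replicate 2. Sema3a, a ligand of neuropilin 1, was at 7.24, 7.68 and 7.72 in wild type and 7.85, 8.001 and 7.68 in T173I, a difference of 0.297. Its T173I replicate 3 lay between wild-type replicates 1 and 3. Sema3b was at 6.14, 6.35 and 6.42 in wild type and 6.47, 6.42 and 6.84 in T173I, with groups that did not overlap by a margin smaller than either group's SD. Sema3f, a ligand of neuropilin 2, and Sema3c had differences of 0.34 and 0.29, and Sema3g had one of -0.11. None of the class had an unadjusted p under 0.05.

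All 6 class 4 semaphorins, which span the membrane, had negative differences, of -0.26 (Sema4c) to -0.0026 (Sema4f). Sema4d, the ligand of plexin B1, was at 8.67, 8.31 and 8.66 in wild type and 8.42, 8.299 and 8.34 in T173I, and wild-type replicate 2 lay among the T173I arrays. Sema4g had T173I replicates on both sides of its wild-type range, at 6.600, 5.34 and 6.402 against 6.27, 6.22 and 6.06. Of class 5, which carries thrombospondin repeats, Sema5a was at 5.91, 5.68 and 5.48 in wild type and 5.51, 5.19 and 5.09 in T173I. Its T173I replicate 1 lay just above wild-type replicate 3, so the groups overlapped. The difference was -0.42 (95% interval -0.79 to -0.06, unadjusted p = 0.03, limma adjusted p = 0.48). Sema5b had a difference of 0.09 and the same printed value, 6.02, on all 3 T173I arrays.

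Of class 6, Sema6c was at 7.33, 7.15 and 7.02 in wild type and 7.03, 6.18 and 7.02 in T173I, where T173I replicate 2 alone lay well below the rest. Without that array the difference of Sema6c was -0.14, against -0.42 with it. Sema6a, another membrane-spanning semaphorin, had a difference of -0.44 (-1.18 to 0.300) that took the opposite sign, 0.012, with array weights. Sema7a, a lipid-anchored semaphorin that also binds integrins, was at 5.52, 5.47 and 5.56 in wild type and 5.89, 5.89 and 5.59 in T173I. Each T173I array was above each wild-type array, replicate 3 by a narrow margin, and replicates 1 and 2 held the same value. Its difference was 0.28 (95% interval 0.02 to 0.53, unadjusted p = 0.036, limma adjusted p = 0.48). The unadjusted p was 0.094 with array weights, 0.065 with the replicate number as a block, and 0.0645 to 0.105 when any 1 array other than T173I replicate 3 was left out.

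Slit2, a secreted repellent whose receptors are Robo1 and Robo2, was at 9.05, 8.83 and 9.77 on the wild-type arrays and 8.41, 7.69 and 8.49 on the T173I arrays. All 3 T173I arrays were below all wild-type arrays, and replicate 2 was lowest. The means were 9.22 ± 0.49 for wild type and 8.201 ± 0.44 for T173I (SD, n = 3 each). The difference was -1.02 log2 units, 2.02-fold lower in T173I (95% interval -1.74 to -0.29, unadjusted p = 0.013, limma adjusted p = 0.45). It stayed between -1.21 and -0.74 when any 1 array was left out. The paralogs Slit1 and Slit3 had differences of 0.15 and -0.075; Slit3 had equal values on all 3 wild-type arrays.

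Netrins are laminin-related proteins, and all 3 had negative differences. Ntn4, a netrin of basement membranes, was at 8.84, 8.48 and 8.16 in wild type and 8.67, 7.77 and 7.34 in T173I. T173I replicate 1 lay within the wild-type range and the other 2 T173I arrays below it. The difference was -0.57 (-1.401 to 0.27), and -0.94 without T173I replicate 1 (unadjusted p = 0.0073, limma adjusted p = 0.105). Without that array 22.1% of all genes had an unadjusted p under 0.05. Ntn1 and Ntn3 each had a difference of -0.024.

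Nrp1, the co-receptor of class 3 semaphorins and of vascular endothelial growth factor, had the largest difference of the 55 members tested. It was at 7.997, 8.89 and 9.44 on the wild-type arrays and 9.74, 10.58 and 10.46 on the T173I arrays. All T173I arrays were above all wild-type arrays, although the wild-type arrays themselves spanned 2.71-fold. The means were 8.78 ± 0.73 for wild type and 10.26 ± 0.45 for T173I (SD, n = 3 each). The difference was 1.49 log2 units, or 2.81-fold (95% interval 0.55 to 2.42, unadjusted p = 0.0074, limma adjusted p = 0.45). It ran from 1.099 without wild-type replicate 1 to 1.82 without wild-type replicate 3. Nrp2, which binds Sema3f and Sema3c, was at 7.95, 8.33 and 8.28 in wild type and 8.23, 9.17 and 8.51 in T173I, a difference of 0.45 (-0.14 to 1.03), and T173I replicate 1 lay within the wild-type range.

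**Figure D3:**
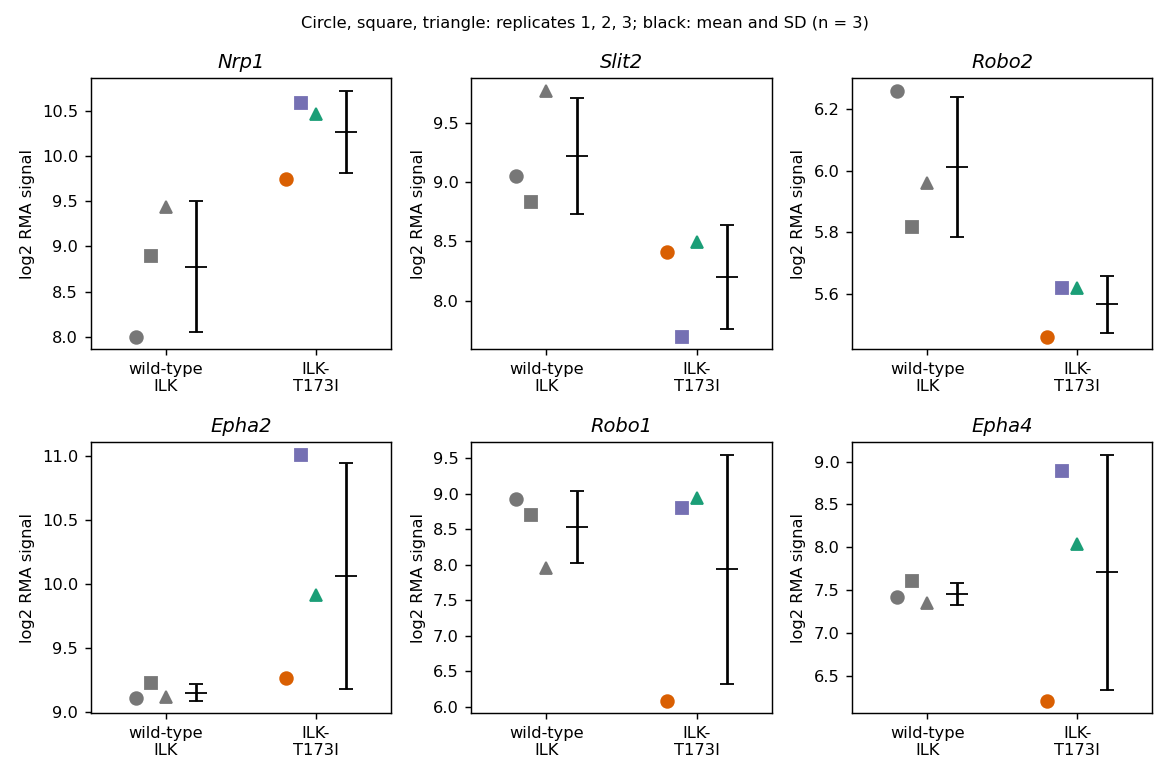
The y axes give log2 RMA signal for 6 genes, with wild-type arrays in grey, T173I arrays in colour, replicates 1 to 3 as circle, square and triangle, and the mean with SD (n = 3) in black. The groups do not overlap in Nrp1, Slit2, Robo2 and Epha2, while in Robo1 and Epha4 T173I replicate 1 lies below all other arrays.

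Plexins, the signalling receptors of semaphorins, had 5 positive and 2 negative differences in 7 tested members. Plxna1, a partner of neuropilins, was at 9.15, 9.18 and 9.52 in wild type and 9.53, 9.58 and 9.51 in T173I. The T173I arrays lay close together near wild-type replicate 3, and the difference was 0.26 (-0.02 to 0.53). Its second, dimmer probe set had a difference of -0.036, so the 2 probe sets differed in sign. Plxna2 lay at the edge of the filter, with a mean of 5.37 and a difference of 0.33. Its wild-type mean, 5.21, was under the filter. Plxnb1, the receptor of Sema4d, had its lowest signal on wild-type replicate 1, at 5.24, 6.54 and 7.11 in wild type and 7.14, 6.61 and 6.54 in T173I. Its difference was 0.47, and -0.057 without that array. The second, dimmer probe set of Plxnb1 had means of 5.22 in wild type and 5.26 in T173I, a difference of 0.038. Plxnb2 ran only from 11.04 to 11.32 over the 6 arrays, with a difference of -0.072 (-0.31 to 0.17). Plxnd1, the receptor of Sema3e, had a difference of -0.25 (-1.01 to 0.505), opposite in sign to that of its ligand, and neither interval excluded 0. Plxna3 and Plxna4 had differences of 0.13 and 0.047.

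Of the Eph receptors, 6 of 11 had positive differences and 0 had an unadjusted p under 0.05. Epha2, an Eph receptor of epithelial cells, was at 9.11, 9.22 and 9.11 in wild type and 9.26, 11.01 and 9.91 in T173I. All T173I arrays were above wild type, replicate 1 narrowly and replicate 2 by the widest margin. The wild-type arrays spanned 1.08-fold and the T173I arrays 3.36-fold. The difference was 0.91 (95% interval -0.05 to 1.88, unadjusted p = 0.06), and leaving out T173I replicate 2 gave 0.44, leaving out replicate 1 gave 1.31. Epha4, which binds ephrins of both classes, was at 7.42, 7.603 and 7.35 in wild type and 6.21, 8.89 and 8.03 in T173I. Its T173I arrays lay on both sides of the wild-type range, so its small difference of 0.25 (-1.23 to 1.74) does not show likeness of the arrays. Without T173I replicate 1 the difference of Epha4 was 1.00 (unadjusted p = 0.0081, limma adjusted p = 0.109), where 22.1% of all genes had an unadjusted p under 0.05.

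Epha3 and Epha6 had their lowest signal of all 6 arrays on T173I replicate 1 as well. Epha3 was at 7.66, 6.29 and 6.28 in wild type and 5.08, 6.65 and 7.08 in T173I, and Epha6 at 6.76, 5.52 and 6.23 in wild type and 4.74, 5.595 and 6.16 in T173I, with differences of -0.47 and -0.67. When T173I replicate 1 was left out, that of Epha3 took the opposite sign, 0.12, and that of Epha6 was -0.29. Epha7 had its lowest signal on wild-type replicate 1, at 6.25, 6.74 and 7.83 against 7.33, 7.15 and 7.75 in T173I. Epha1 had a difference of 0.101 (-0.31 to 0.51). Epha8 and Epha10, both on dim probe sets, had equal values on several arrays and differences of 0.026 and -0.011. Among EphB receptors, Ephb4, the receptor of ephrin-B2, stayed within 8.63 to 8.896 over the 6 arrays, with a difference of -0.062 (-0.29 to 0.16). Ephb6, whose kinase domain is inactive, had a difference of -0.19, and Ephb3 one of 0.049. The T173I mean of Ephb6, 5.31, was under the filter.

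Robo2 was at 6.26, 5.82 and 5.96 on the wild-type arrays and 5.46, 5.62 and 5.62 on the T173I arrays. All T173I arrays were below all wild-type arrays, and the signal was in the dimmer part of the tested range. T173I replicates 2 and 3 held exactly the same value, a tie that lowers the SD of T173I. The means were 6.01 ± 0.23 for wild type and 5.57 ± 0.093 for T173I (SD, n = 3 each). The difference was -0.45 (95% interval -0.76 to -0.14, unadjusted p = 0.012, limma adjusted p = 0.45), and it ran from -0.54 to -0.32 when any 1 array was left out. Robo1, the other tested Slit receptor, was at 8.94, 8.71 and 7.96 in wild type and 6.08, 8.798 and 8.94 in T173I. Only T173I replicate 1 lay below the wild-type range, 7.27-fold under T173I replicate 3, the widest range between T173I arrays of any tested member. The difference of Robo1 was -0.59 (-2.42 to 1.23, unadjusted p = 0.46), and with T173I replicate 1 left out it took the opposite sign, 0.34.

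The Unc5 genes encode netrin receptors. Unc5b was at 5.66, 6.06 and 5.75 in wild type and 5.96, 5.995 and 6.06 in T173I, a difference of 0.19 (-0.104 to 0.47), and Unc5a had one of 0.099. Their groups overlapped.

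The arrays at the ends of the range were not spread evenly. Wild-type replicate 1 was the single lowest of the 6 arrays in 17 of 55 members (30.9%, against 15.7% of all genes tested), among them Nrp1, Nrp2, Efna5, Efnb2, Epha7, Sema3a, Sema3b and Plxnb1. T173I replicate 2 was lowest in 16 members (29.1%, against 31.2%) and highest in 12 (21.8%, against 22.4%). T173I replicate 1 was lowest in 7 members (12.7%, against 13.5%), including Robo1, Epha3, Epha4 and Epha6. In 10 members (18.2%, against 5.47% of all genes) the T173I arrays spanned more than 1 log2 unit, and in 6 members (10.9%, against 1.12%) the wild-type arrays did.

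Ligands and receptors were then set side by side. The median difference was -0.024 over 31 ligands (13 positive, 18 negative) and 0.074 over 24 receptors (15 positive, 9 negative), and -0.011 over all genes tested. Ligands minus receptors thus gave -0.098. On single arrays, measured from the wild-type mean of each gene, the ligand median was 0.051, -0.054 and 0.012 on T173I replicates 1, 2 and 3, and the receptor median was 0.047, 0.086 and 0.23. Ligands minus receptors was 0.0041, -0.14 and -0.22 on these arrays, and -0.011 to 0.0053 on the wild-type arrays. T173I replicate 1 lay within the wild-type range, and replicates 2 and 3 below it. The wild-type medians lie near 0 because the deviations were taken from the wild-type mean. Without T173I replicate 1 the value was -0.20, and without T173I replicate 2 it was -0.046, while the median of ligands took the opposite sign (0.013).

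**Figure D4:**
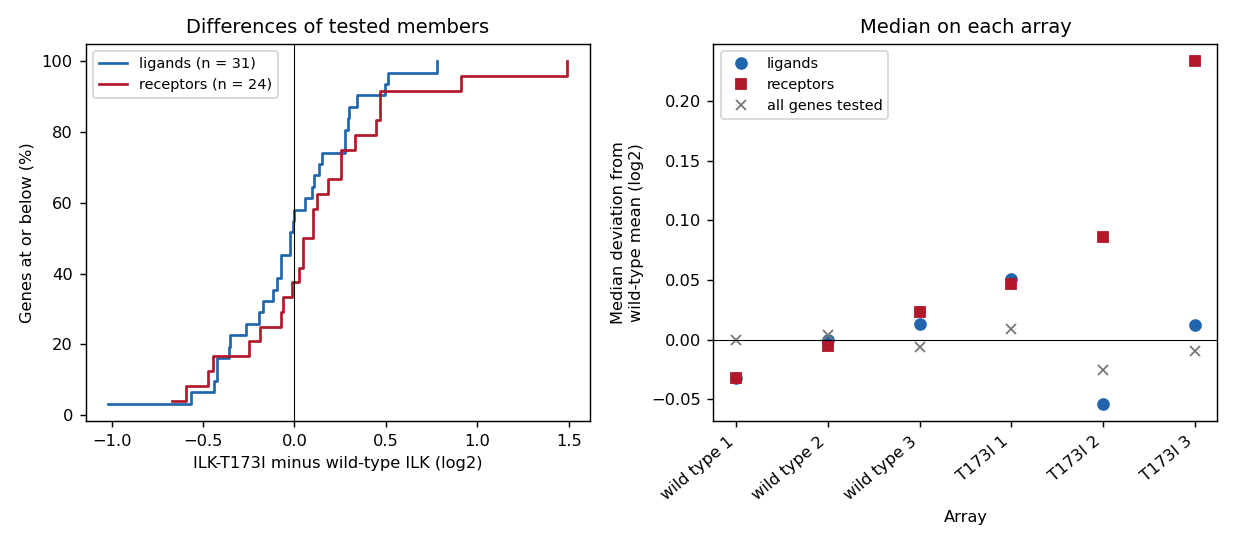
Left, the share of tested ligands (n = 31) and receptors (n = 24) at or below each log2 difference of T173I minus wild type. Right, the median log2 deviation from the wild-type mean on each of the 6 arrays for ligands, receptors and all genes tested; the receptor median reaches 0.23 on T173I replicate 3, where the ligand median is 0.012.

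Genes that act beside or below the receptors were taken from a list of 71 effectors and co-receptors, of which 60 were tested. At an unadjusted p under 0.05, 7 were higher and 1 was lower (4.88% and 5.31% of all genes), 0 passed the adjusted threshold, and the median difference was -0.0039. Farp1 was at 9.07, 8.92 and 9.17 in wild type and 9.35, 9.46 and 9.57 in T173I, a difference of 0.41 (unadjusted p = 0.0061). Dpysl5, a collapsin response mediator protein, was at 5.67, 6.19 and 6.15 in wild type and 6.51, 7.07 and 7.58 in T173I, a difference of 1.05 (unadjusted p = 0.008). Rnd2 and Enah, an actin regulator, had differences of 0.31 and 0.34. In these 4 genes each T173I array was above each wild-type array. Farp2, a paralog of Farp1 that acts in semaphorin 3A signalling through plexin A1, had the opposite sign, -0.28, with signals of 7.299, 7.08 and 7.23 in wild type and 6.99, 6.91 and 6.88 in T173I that did not overlap. Chn2, Arhgef12 and Adam10, a sheddase of ephrins, had differences of -0.85, -0.41 and -0.31, and their groups overlapped. The number at an unadjusted p under 0.05 in both directions together was 8 on all arrays and 15 without T173I replicate 1. It was 5 without wild-type replicate 1, and 4 without either wild-type replicate 2 or T173I replicate 3. Of all genes tested, 10.2% were called on all arrays and 22.1% without T173I replicate 1. That share was 5.03%, 5.97% and 7.31% without wild-type replicate 1, wild-type replicate 2 and T173I replicate 3.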

How the data were processed

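The deposited values are log2 signals per probe set, for which the submitters' processing notes name RMA without a version. RMA makes the arrays' signal distributions alike (array medians 5.45 to 5.52), so a shift common to most transcripts stays hidden. Precision is limited by the number of arrays. Of 41345 probe sets 23521 had 1 gene symbol in the platform annotation, none of them for Ilk alone. Each gene was represented by its brightest probe set (22180 genes), the dimmest 40% were left out, and 13308 genes were fitted with limma (version 3.58.1, R 4.3.3; lmFit and eBayes, two-sided, no covariate), with Benjamini-Hochberg adjustment over all of them, a threshold of 0.05 and 95% intervals. Exact ties between arrays, seen in 12 of 55 tested members, lower the spread a test sees.

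The named genes were the 10 higher and 10 lower members of smallest unadjusted p, 1 member of each family without one, and the 4 higher and 4 lower effectors; further members were named after their values were seen. Members, lists and motifs were chosen with earlier results of these data known. Scripts were tested on simulated data. Alternatives covered the filter, eBayes prior, normalization, probe set rule, array weights, replicate block and leaving out each array. Same-numbered arrays did not deviate together (correlations 0.048 to 0.067), so they were not treated as pairs.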

Additional observations from a re-analysis of the deposited data

How the results depend on the processing

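Under each of 14 alternatives 0 guidance genes passed the adjusted threshold, and 270 of 271 differences of the 20 named members kept their sign; that of Sema6a was 0.012 with array weights. Leaving out 60% of genes tested 29 members. It gave 1 member higher and 1 member lower at an unadjusted p under 0.05, where 5.47% and 5.59% of all genes were called. It also gave 3 members whose groups did not overlap, for which no share of all genes was taken. The receptor median was 0.25 and the ligand minus receptor value -0.27. Without a filter the receptor median was 0.017 and the ligand minus receptor value -0.041. Array weights gave 7 higher members, where 10.3% of all genes were higher. They gave 15 effectors and 2856 genes in all (21.5%) at an unadjusted p under 0.05. The replicate block gave 8 members higher and 4 members lower at an unadjusted p under 0.05 (5.33% and 6% of all genes). It called 1508 genes in all, and 0 passed the adjusted threshold. Of the T173I arrays, 2 of 3 deviated most like the wild-type array of their number. Leaving out 1 array gave 0 to 156 genes past the adjusted threshold and 670 to 2946 at an unadjusted p under 0.05. It gave 1 to 6 members higher and 2 to 5 lower, where 2.49% to 9.83% and 2.54% to 12.3% of all genes were called. In 8 to 17 members the groups did not overlap, where fewer arrays make a lack of overlap more common. The matching share of all genes without overlap was not taken, so these counts say nothing particular to the members. The ligand median ran from -0.10 to 0.013, the ligand minus receptor value from -0.20 to -0.046, and the effectors at an unadjusted p under 0.05 from 4 to 15. The cause of the other shifts was not tested.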
